A study of Rattus norvegicus with 15 samples.

Results

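The genes described here are those whose level rose and fell with Slc17a7 across 15 arrays of rat nucleus accumbens, 150 of the 14497 genes that the array measured under a single symbol. For each gene the probe set with the highest mean was taken, and 790 genes had a standard deviation (SD) over the 15 arrays of at least 0.2 on the log2 scale. Nr4a2 and Arc were left out by name, Bdnf, also left out by name, lay below that SD minimum, and the remaining 788 genes were ranked by Pearson r with Slc17a7. The 150 highest, Slc17a7 included, made up 19.0% of the ranked genes. The members were thus chosen by their measured levels on all 15 arrays, and their r values, their slopes on Slc17a7 and their shared direction are given as descriptions and support nothing by themselves.

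Slc17a7 encodes the vesicular glutamate transporter with which most excitatory neurons of cortex and hippocampus fill their synaptic vesicles. During development such neurons are specified by the basic helix-loop-helix factors Neurod1, Neurod2 and Neurod6 and by layer factors such as Fezf2, and they keep producing peptides, pentraxins and surface proteins typical of projection neurons. The nucleus accumbens, in contrast, consists mainly of GABAergic medium spiny neurons that carry dopamine receptors, and the cell bodies of its glutamatergic inputs lie outside it. In whole tissue, fewer cells of a type and less RNA per cell cannot be told apart.

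The study compared male Sprague-Dawley rats after 10 days of self-administration in daily sessions of 6 h, in 5 groups of 3 arrays. Saline rats (Sal) self-administered saline, and the labels give them neither a withdrawal time nor a test. All other rats self-administered cocaine at 0.75 mg/kg per infusion through an intravenous catheter and then spent 1 day (1W) or 30 days (30W) in withdrawal. Groups 1C and 30C had withdrawal of 1 day and 30 days and then an extinction test that measured drug seeking in response to cues. The values are deposited log2 intensities, and whether each holds the RNA of 1 rat or of a pool is not stated in the labels, so p-values measure only the spread between these samples. Pairs of arrays correlated at 0.993 or higher over all probe sets. The labelled tissue was checked against 9 accumbens markers measured under a single symbol, and the lowest of their median levels lay at the 88.2 percentile of all probe sets.

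All of the cortical markers that accompany the label were members. Slc17a7 has r = 1 by construction, Neurod6 ranked 3 with r = 0.968, Neurod2 ranked 8 with r = 0.918, and Fezf2 ranked 149 with r = 0.654, next to the limit. The promoters of the transporter and of the Neurod factors nearest to it in rank are shown because these genes carry the cortical label of the module. Each is the 250 bases upstream of the annotated start from RefSeq (assembly GRCr8), 5′ to 3′ on the strand of the gene, with capitals for any match to the motifs named below. They lie at chr1:104785955-104786204 on the plus strand for Slc17a7, chr4:86180156-86180405 on the minus strand for Neurod6, and chr10:83824278-83824527 on the minus strand for Neurod2.
Slc17a7: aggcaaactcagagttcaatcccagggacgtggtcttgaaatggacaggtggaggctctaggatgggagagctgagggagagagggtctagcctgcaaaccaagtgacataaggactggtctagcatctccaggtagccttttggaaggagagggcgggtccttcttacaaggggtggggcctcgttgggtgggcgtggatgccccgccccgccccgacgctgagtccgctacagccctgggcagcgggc
Neurod6: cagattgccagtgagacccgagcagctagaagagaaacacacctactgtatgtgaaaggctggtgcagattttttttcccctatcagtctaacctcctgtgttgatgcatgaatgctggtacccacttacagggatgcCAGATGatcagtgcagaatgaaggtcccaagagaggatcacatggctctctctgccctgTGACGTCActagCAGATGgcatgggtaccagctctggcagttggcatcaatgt
Neurod2: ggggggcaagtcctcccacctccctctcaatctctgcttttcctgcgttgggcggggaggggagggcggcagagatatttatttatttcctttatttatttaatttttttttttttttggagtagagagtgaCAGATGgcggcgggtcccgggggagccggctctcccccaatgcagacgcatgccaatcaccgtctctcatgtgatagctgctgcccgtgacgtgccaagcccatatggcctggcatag

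The motifs searched, on both strands, were CAGATG and CAGCTG, which are E boxes of the kind that basic helix-loop-helix factors bind, AGGTGTGA, a T-box site, and TGACGTCA, the cAMP response element. Neurod6 held CAGATG with its first base at -112 and at -41 from the start and TGACGTCA at -53, Neurod2 held CAGATG at -118, and the Slc17a7 window held none of the 4. These matches do not overlap one another. In windows of 250 bases before to 50 after the start, 116 member genes had 121 windows, and CAGATG was in 13.2% of them against 16.6% of all 33469 windows. CAGCTG was in 10.7% of member windows against 15.1% of all, AGGTGTGA in 0 against 1.10%, and TGACGTCA in 5 windows or 4.13% against 1.83%. A match describes letters in a window and does not show binding.

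Slc17a7 itself varied within groups far more than between them. Its log2 level was 7.16, 11.52 and 12.02 in Sal, 11.28, 11.19 and 9.83 in 1W, 10.02, 11.56 and 10.96 in 1C, 11.22, 11 and 11.04 in 30W, and 12.16, 10.94 and 9.23 in 30C. The low arrays were Sal replicate 1, 30C replicate 3, 1W replicate 3 and 1C replicate 1, the high ones 30C replicate 1 and Sal replicate 3, and all 5 groups overlapped. Group means were 10.24 ± 2.67 in Sal, 10.77 ± 0.81 in 1W, 10.84 ± 0.78 in 1C, 11.08 ± 0.12 in 30W and 10.78 ± 1.47 in 30C (SD, n = 3 each), so no neighbours in the order of the means differed beyond their spread.

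Cck, which encodes the peptide cholecystokinin made by cortical projection neurons and some interneurons, followed Slc17a7 most closely, with r = 0.982. Its values were 8.45, 11.23 and 11.68 on Sal arrays, 11.03, 11.18 and 9.85 on 1W, 9.95, 11.35 and 10.79 on 1C, 11.12, 10.54 and 10.81 on 30W, and 11.81, 10.94 and 9.42 on 30C. Its highest array, 30C replicate 1, stood 10.3-fold above its lowest, Sal replicate 1, and the same 4 low arrays recurred. Neurod6 measured 5.94, 9.31 and 9.75 on Sal, 8.90, 8.76 and 7.24 on 1W, 8.07, 9.43 and 8.63 on 1C, 9.03, 8.29 and 8.65 on 30W, and 10.08, 8.43 and 7.15 on 30C. This range was 17.6-fold, and on Sal replicate 1 Neurod6 lay at the 32.3 percentile of that array, close to the low end where an intensity bounds a level poorly. Neurod2 lay at the 33.8 percentile there. Other members were lower still on that array, such as Npsr1 (5.66), Neurod1 (5.69), Chrna5 (5.74), Rspo3 (5.86) and Tfap2d (5.87). The ranges and slopes of all these genes carry the same limit. Neurod2 measured 6.02, 7.60 and 8.0 on Sal, 7.33, 7.48 and 6.78 on 1W, 6.5, 7.82 and 7.11 on 1C, 7.41, 7.22 and 7.22 on 30W, and 8.39, 7.18 and 6.60 on 30C, a 5.16-fold range. Like Slc17a7, both factors spanned in the Sal group nearly the range that they spanned over the whole series.

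Fezf2, the factor that specifies subcortically projecting neurons of deep cortical layers, was less close. It measured 7.29, 8.44 and 8.60 on Sal, 7.59, 8.03 and 7.33 on 1W, 7.49, 7.96 and 8.11 on 1C, 8.04, 7.43 and 7.46 on 30W, and 9.18, 7.66 and 7.73 on 30C. On 30C replicate 1 it stood clear of every other array, and on 30C replicate 3, where Slc17a7 was second lowest, it was near its middle. With the group means removed its r with Slc17a7 was 0.82. The members just inside the limit were Slitrk1 (r = 0.655), Fezf2 and Dkk3 (0.653), and the genes just outside it were Slc38a4 (0.653), Lgr5 (0.652) and Tshz3 (0.65), so the limit separates genes of nearly equal r. Of the genes left out by name, Nr4a2, an orphan nuclear receptor of deep cortical neurons that activity also induces, had r = 0.929 and ranged from 7.39 to 11.31. Bdnf had r = 0.730 and Arc r = 0.560.

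**Figure D1:**
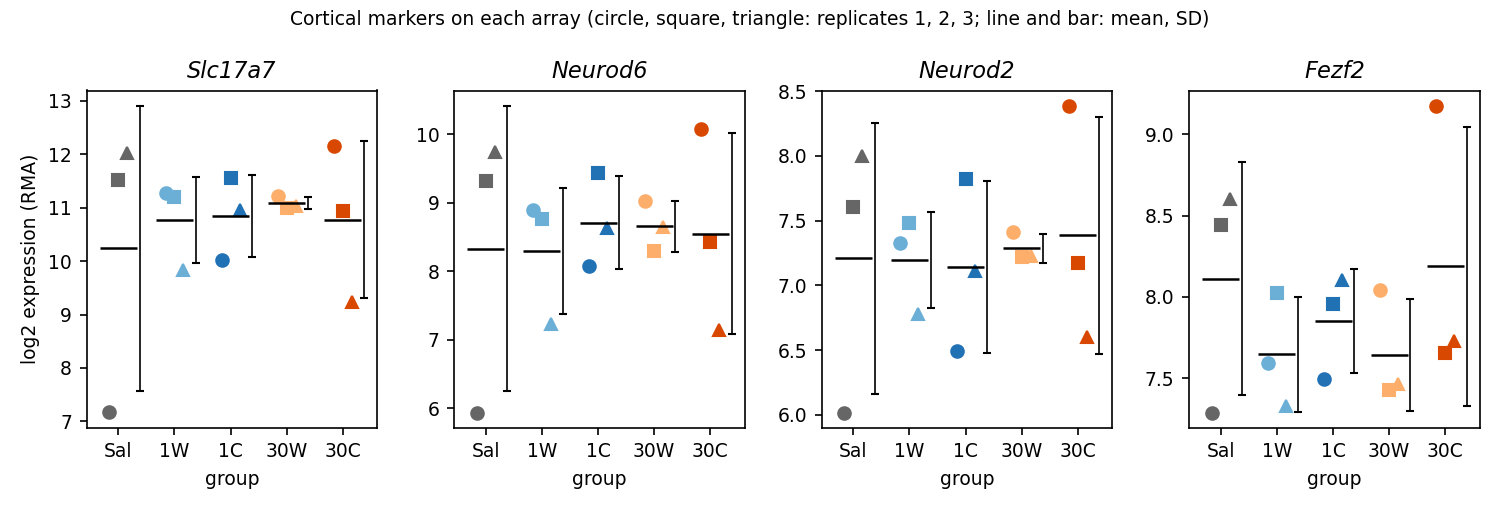
Log2 intensity (vertical axis) of Slc17a7, Neurod6, Neurod2 and Fezf2 on the 3 arrays of each group (horizontal axis), with points for arrays, a line for the group mean and a bar for its SD. Sal replicate 1 lies lowest and 30C replicate 1 highest in each panel, and the groups overlap in every panel.

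Over the 150 members the median r with Slc17a7 was 0.786, against 0.063 over all ranked genes, and 17 members reached 0.9 and 68 reached 0.8. Members also followed one another, with a median r of 0.849 between pairs of members, and their first principal component held 86.0% of their variance. When each group's mean was removed, r was higher for 149 of the 149 members other than Slc17a7, with a median of 0.877 and a lowest value of 0.697. Without Sal replicate 1 and 30C replicate 3, the arrays farthest from the median Slc17a7 level, the median was 0.854, and 9 members lay below 0.65. These were Slc15a2 at 0.58, Cpne4 at 0.63, Lxn, Nptx2, Klf10 and Thrsp at 0.64, Pax6 at 0.55, Kcnv1 at 0.48 and Cacng5 at 0.42. Without 30C replicate 1 alone the median was 0.779.

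The arrays at the ends were the same for most members. 30C replicate 1 was the highest array for 129 members, or 86.0%. It was highest for 225, or 28.5%, of all 790 genes that met the SD minimum, a count that includes these 129. Sal replicate 3 was highest for 18 members and Sal replicate 2 for 2, and the complement gene C3 was the 1 member highest on 1C replicate 2. Sal replicate 1 was lowest for 93 members, or 62.0%, against 119, or 15.1%, of the 790, which again include the members. It was followed by 30C replicate 3 with 29 members, 1W replicate 3 with 24, 1C replicate 1 with 3 and 30W replicate 2 with 1. Every member lay above its own median on 30C replicate 1 and 149 did on Sal replicate 3, while 0 did on Sal replicate 1 or 30C replicate 3.

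**Figure D2:**
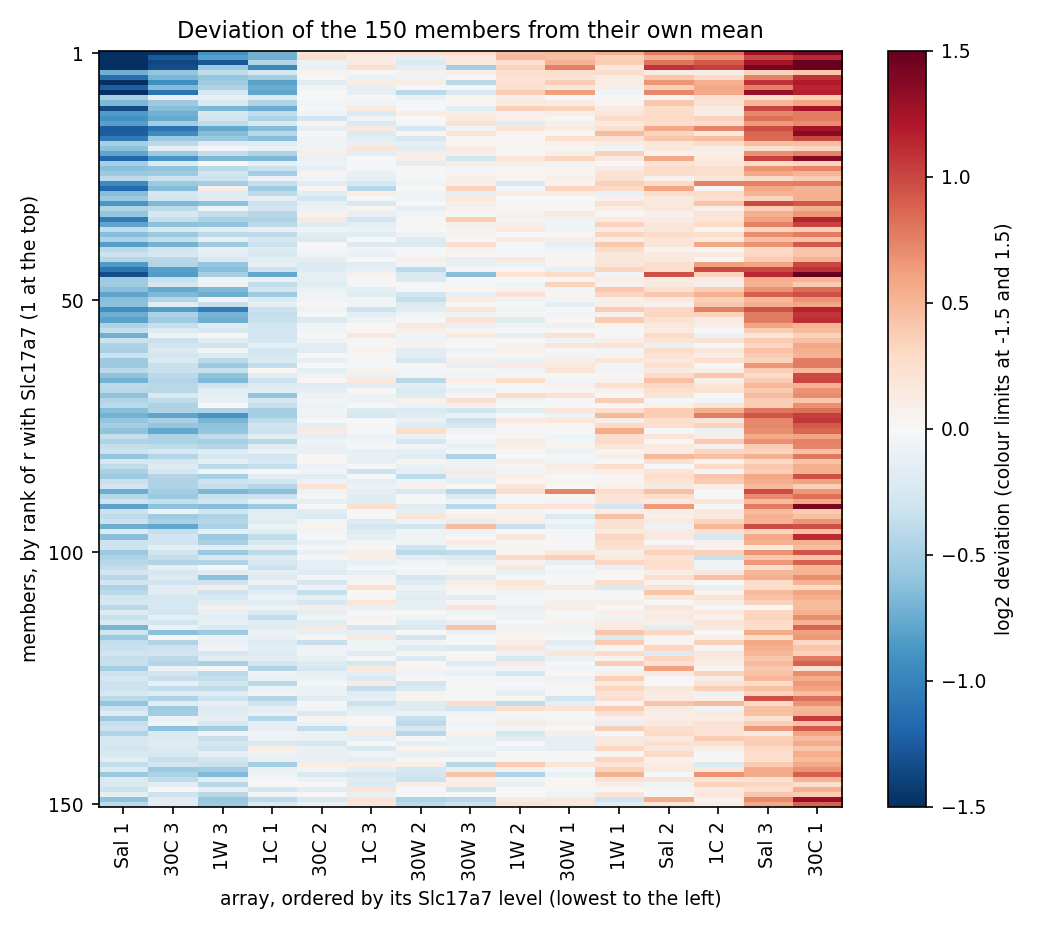
Deviation of each of the 150 members (vertical axis, by rank of r with Slc17a7) from its own mean in log2 units (colour, limited to -1.5 to 1.5) on each array (horizontal axis, ordered by the array's Slc17a7 level). Sal replicate 1 is blue and 30C replicate 1 red for nearly all members, and the arrays of a group are spread along the axis.

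The members differed in how steeply they rose. The slope on Slc17a7, in log2 units of the member per log2 unit of the transporter, had a median of 0.19 and a lowest value of 0.11, and it was 0.5 or more for 8 members and below 0.2 for 82. From the lowest to the highest array the members spanned a median of 2.21-fold and at least 1.61-fold, with 100 at 2-fold or more and 18 at 4-fold or more.

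Secreted peptides and proteins were the most numerous class of known role, with 23 members and a median slope of 0.26. Ccn3, encoding a matricellular protein, had the steepest slope after Slc17a7 itself, 0.88, and a 20.4-fold range. It measured 7.03, 11 and 11.34 on Sal, 10.08, 10.27 and 9.36 on 1W, 8.95, 10.94 and 10.17 on 1C, 10.67, 9.77 and 9.41 on 30W, and 11.38, 9.80 and 8.59 on 30C. Its low and high arrays were those of Slc17a7. Nptx1, a neuronal pentraxin that gathers AMPA receptors at synapses, had r = 0.929, with a lowest value of 8.38, a median of 9.53 and a highest of 10.59. Nxph3, a neurexophilin that binds neurexins, had r = 0.925 and ran from 6.52 over a median of 8.19 to 9.28. The class also held Rspo3 and Rspo2, secreted amplifiers of Wnt signalling with slopes of 0.48 and 0.22, Scube1 (r = 0.888), the natriuretic peptide gene Nppa (r = 0.855), the cerebellins Cbln1 and Cbln2, the axon repellent Slit1, and Adcyap1, which encodes the peptide PACAP.

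Genes of vesicle filling and release made up 11 members with a median slope of 0.23. Cplx3, a complexin that clamps vesicle fusion and marks the deepest cortical cells, had r = 0.912, a slope of 0.61 and an 8.75-fold range. Slc30a3, the transporter that loads zinc into glutamatergic vesicles, had r = 0.907 and values from 6.94 to 8.55 around a median of 7.88. The plasma membrane SNARE gene Stx1a had r = 0.878 and a slope of 0.27, and the vesicle protein gene Sv2b had a slope of 0.22. The active zone gene Rims1 had r = 0.850 with a slope of only 0.14, from 9.42 on Sal replicate 1 to 10.17 on 30C replicate 1. High r and steep slope therefore did not go together throughout this class.

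Receptors for transmitters and peptides (13 members, median slope 0.23) included subunits of the nicotinic acetylcholine receptor. Chrna5, the accessory subunit, had r = 0.843, a slope of 0.52 and values from 5.74 over a median of 7.03 to 8.56, and Chrna4 had r = 0.840 and a slope of 0.37. Npsr1, the neuropeptide S receptor, had r = 0.898 and ran from 5.66 to 7.72. Drd5, the dopamine receptor of the D1 family that cortex and hippocampus express more than striatum, was a member with a slope of 0.12, from 7.55 on Sal replicate 1 to 8.33 on 30C replicate 1. Sstr2 and Sstr1, receptors for somatostatin, Gabbr2, a subunit of the GABA-B receptor, and Grm2, an inhibitory glutamate autoreceptor, were also among them. Of 8 ion channel genes, Kcnj3 (r = 0.901) and Kcnj6 (r = 0.830), subunits of G protein-gated inward rectifiers, had the steepest slopes, 0.29 and 0.32.

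Axon guidance and surface genes (15 members, median slope 0.17) were led by Ntng2, a netrin-G gene of glutamatergic axons that also marks claustrum, with r = 0.938 and values from 6.98 on Sal replicate 1 to 8.11 on 30C replicate 1. Nrn1, the activity-linked surface protein neuritin, had r = 0.90 and a slope of 0.47, and the immunoglobulin family genes Opcml and Cntn4 had r = 0.891 and 0.889. Among 6 genes of glycan synthesis, the heparan sulfate sulfotransferase gene Hs3st2 had r = 0.907 and a slope of 0.48, Galnt14 had r = 0.909, and St8sia5 had r = 0.880. Of 14 genes of intracellular signalling, Rasl10a, a small GTPase gene, had r = 0.901 and a slope of 0.35, and the adenylyl cyclase gene Adcy1 had r = 0.818. The 45 members without one of these roles included the protease gene Prss12 (r = 0.90, slope 0.52) and the collagen prolyl hydroxylase gene P4ha3 (r = 0.877).

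Transcription and chromatin genes (15 members) had a low median slope, 0.15, with Neurod6 at 0.83 and Neurod2 at 0.44 as the steepest. Stat6, which transmits interleukin signals, had r = 0.912 but a slope of 0.15. Tfap2d, an AP-2 factor, had r = 0.869 and a slope of 0.34, and Neurod1 had r = 0.845 and a slope of 0.32. The list further held Satb1, Sox5, Nfib, Pax6, Zfpm2, Tox and Hes1, each with a slope between 0.11 and 0.19.

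**Figure D3:**
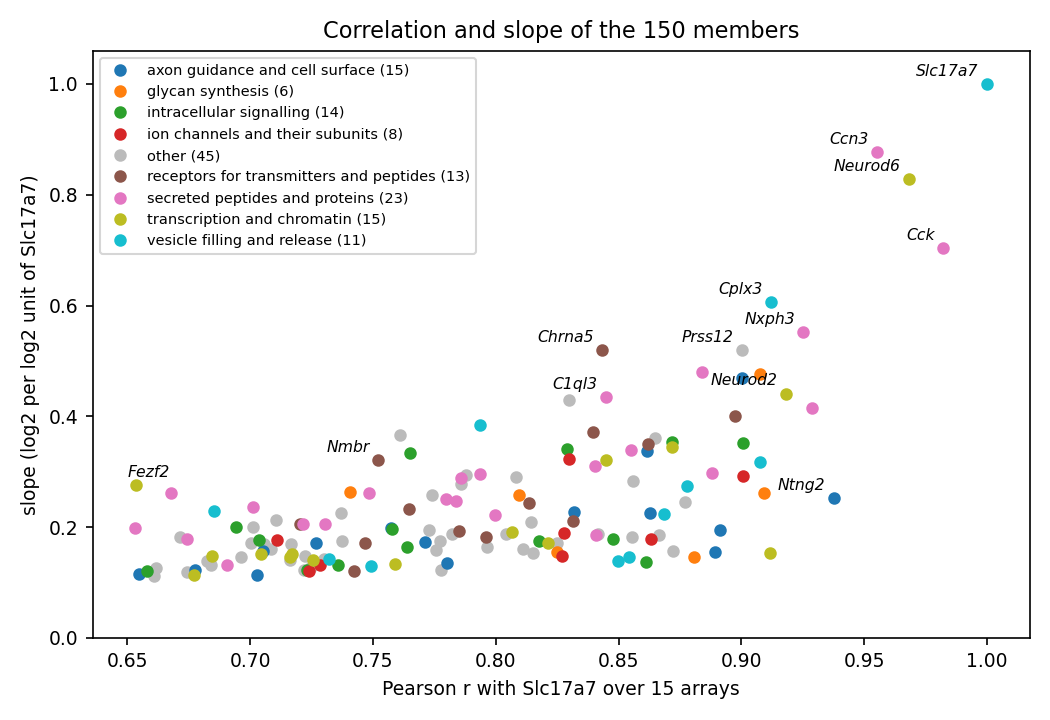
Slope on Slc17a7 (vertical axis, log2 units per log2 unit of Slc17a7) against Pearson r with Slc17a7 over 15 arrays (horizontal axis) for the members, 1 point per gene, with named genes labelled. Ccn3, Neurod6 and Cck stand above the rest, and most points lie below a slope of 0.2.

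Cortical gene lists differed in how far they entered the module. Of 17 measured genes typical of cortical projection neurons in general, 11 were members and the median r of the list was 0.77, against -0.048 over the 11778 genes above background. The members were Slc17a7, Neurod6, Neurod2, Neurod1, Slc30a3, Nrn1, Nptx1, Sv2b, Rtn4r, Kcnv1 and Fezf2. On this list 3 genes had a negative r, the lowest being Gda at -0.46. Of 27 measured cortical transcription factors, 7 were members (Neurod6, Neurod2, Neurod1, Fezf2, Sox5, Pax6 and Zfpm2), and the median r was 0.40. Of the 27, 18 had a positive and 9 a negative r, the lowest being Pou3f2 at -0.68. Zbtb18, Id2, Nr2f1 and Bcl11a, further factors of cortical neurons, had r of 0.82, 0.82, 0.71 and 0.68 but lay below the SD minimum. They were picked for their high r, while of the 9 factors with a negative r only Pou3f2 is named. In all 433 genes above background had an r at or above that of the last member, of which 283 lay below the SD minimum.

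By layer, 0 of 12 measured upper layer markers were members, with a median r of -0.26, and 0 of 5 layer 4 markers, with a median r of 0.28. Of 16 layer 5 markers Fezf2 and Tox were members, and the median r was -0.12. Of 15 layer 6 markers 5 were members, Cplx3, Sla, Ccn2, Rxfp1 and Zfpm2, and the median r was 0.56. Another 5 of the 15 had a negative r, the lowest being Syt6 at -0.50. Cplx3 and Ccn2 are known from the deepest cells of layer 6 and subplate. Of 6 claustrum markers Ntng2 and Lxn were members, with a median r of 0.57. Nr4a2, left out by name, is also on the layer 6, claustrum and immediate early gene lists. Several layer markers are also expressed in striatum, so a low r of such a gene does not describe its cortical level alone.

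**Figure D4:**
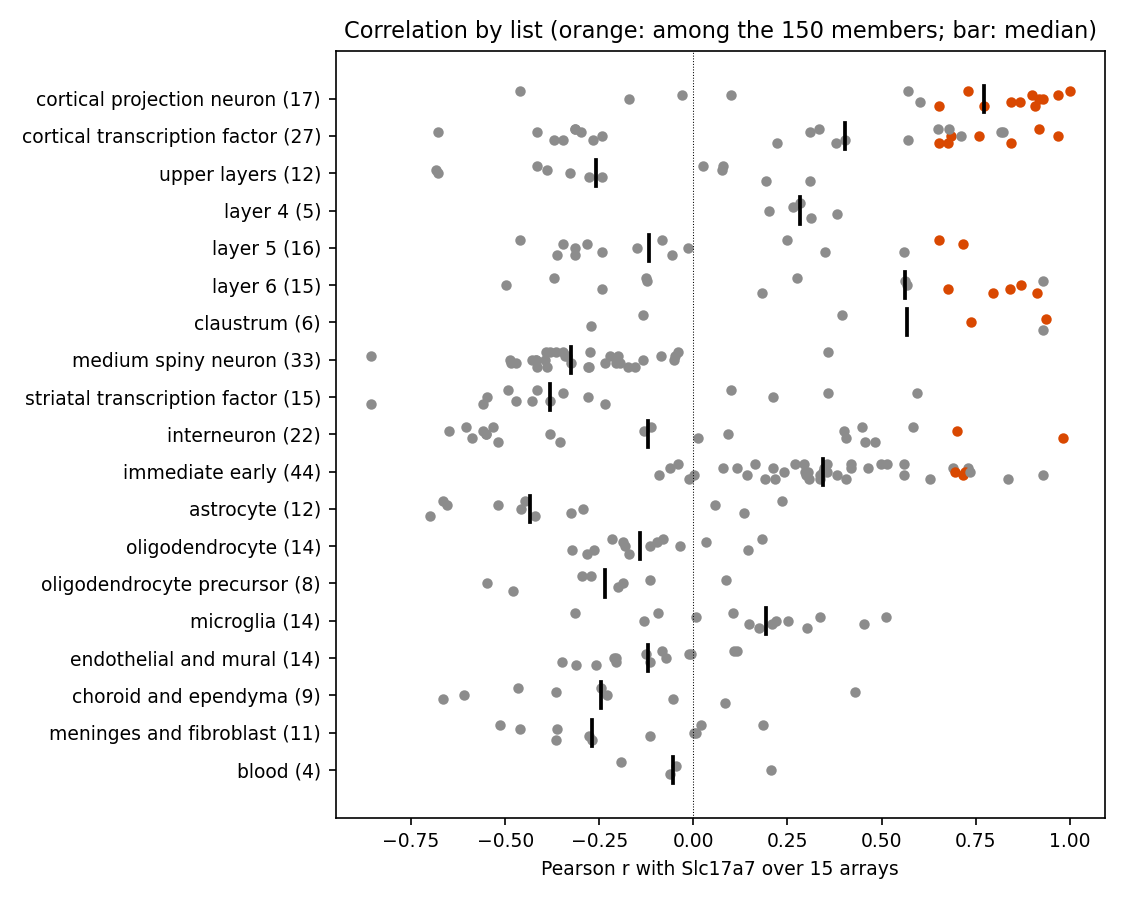
Pearson r with Slc17a7 over 15 arrays (horizontal axis) for each measured gene (point) of the cortical, accumbens and other cell type lists (vertical axis), with a tick for each list's median. General cortical, layer 6 and claustrum markers have medians of 0.77, 0.56 and 0.57. Those of cortical transcription factors, layer 4, layer 5 and upper layers are 0.40, 0.28, -0.12 and -0.26. Medium spiny neuron markers have a median of -0.33, striatal transcription factors -0.38 and astrocyte markers -0.43.

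Most markers of the accumbens' own neurons had a negative r with Slc17a7. Of 33 measured medium spiny neuron markers 0 were members and 32 had a negative r, with a median of -0.33. Over the 11778 genes above background 44.8% had a positive r. A negative r was not particular to these neurons, since 9 of 12 astrocyte markers had one, with a median of -0.43. The mean deviation of this list was -0.40 on 30C replicate 1, 0.25 on 1W replicate 3 and -0.04 on Sal replicate 1, so the array lowest for the module was near the middle for these markers. On 30C replicate 1 lay the lowest value of 29 of the 33 genes. Without that array the median r was -0.17 with 25 negative, while that of the astrocyte markers was -0.42. Without Sal replicate 1 the median r of the medium spiny neuron markers was -0.57. The list's summed level ranged from 15.51 to 16.16 log2 units over the arrays. The 9 accumbens markers, all on this list and including the dopamine receptor genes Drd1 (9.54 to 10.31) and Drd2 (11.21 to 11.88), Ppp1r1b, which encodes DARPP-32 (11.80 to 12.39), and the enkephalin gene Penk (12.39 to 12.92), were all lowest on 30C replicate 1. They spanned 1.45-fold to 2.06-fold, beside a median of 2.21-fold for the module's members. Only the members had to reach the SD minimum, so this difference in span is partly set by the rule. Of 15 striatal transcription factors 0 were members, and the median r was -0.38, with 11 negative and 4 positive. The highest was Dlx1, with r = 0.59. The most negative was Isl1, which specifies striatonigral and cholinergic neurons, with r = -0.86, 7.99 on Sal replicate 1 and 7.21 on 30C replicate 1.

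**Figure D5:**
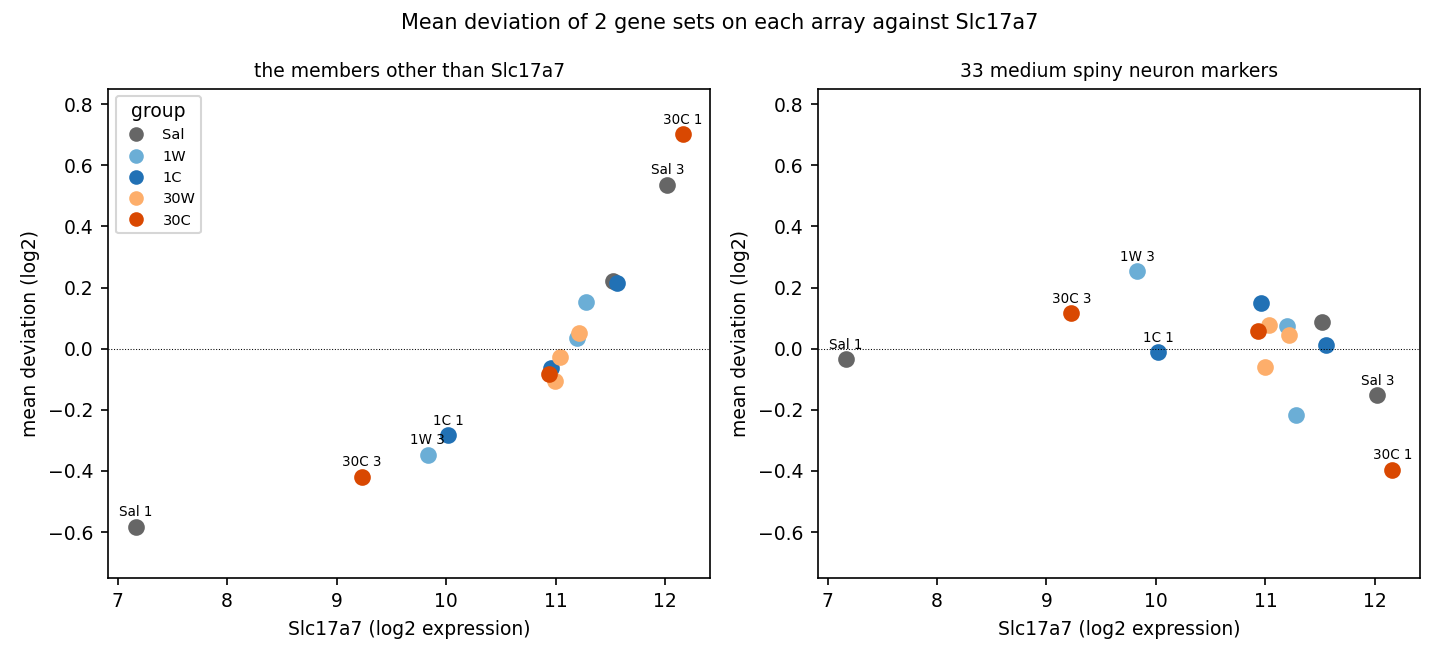
Mean deviation in log2 units (vertical axes) of the 149 members other than Slc17a7 and of the 33 medium spiny neuron markers on each array, against the array's Slc17a7 level (horizontal axes), coloured by group. The module rises over the whole range, whereas the medium spiny neuron markers stand apart mainly on 30C replicate 1, at -0.40.

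Other cell types gave few members. Of 22 measured interneuron markers Cck and Vip were members, and the list's median r was -0.12. Vip, a peptide of interneurons, had r = 0.701 and was the 1 member that did not pass the filter on low values. Markers of astrocytes (median r = -0.43), oligodendrocytes (-0.14), their precursors (-0.24), microglia (0.19), endothelium (-0.12), choroid plexus (-0.25), meninges (-0.27) and blood (-0.05) gave 0 members. The list drawn up for subcortical glutamatergic neurons also gave 0 of 7, with a median r of -0.22, 3 positive and 4 negative. The highest on it was Nrgn, with r = 0.66, which lay below the SD minimum. Nrgn is not specific to subcortical neurons, so its r does not describe them. The lowest was Slc17a8, the vesicular glutamate transporter of striatal cholinergic neurons, with r = -0.76. Of 44 measured immediate early genes, which neurons transcribe upon activity, Nptx2, Klf10 and Dusp6 were members and the median r was 0.34. Their list mean was -0.31 on Sal replicate 1 and 0.44 on 30C replicate 1, and 29 of the 44 were highest on 30C replicate 1. The part of the module's variation in these activity genes was not tested.

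The arrays at each end of the module were not alike in every member. Although Sal replicate 3 had nearly the Slc17a7 level of 30C replicate 1, 129 members were higher on 30C replicate 1 and 21 lower. The median difference over all 150 was 0.13, and 8 were higher by 0.5 or more. These 8, each from 1 array against 1 and so without a replicate check, were Dusp6 (0.82), Galnt9 (0.70), Bhmt (0.65), Nptx2 (0.61), Serinc2 (0.61), Fezf2 (0.57), Cbln2 (0.56) and Mas1 (0.55). The opposite extreme was Rgs18, at -0.33. Between the low arrays, 111 members were higher on 30C replicate 3 than on Sal replicate 1 and 39 lower, with a median difference of 0.12 over all 150. Slc17a7 differed there by 2.06, Ccn3 by 1.56, Neurod6 by 1.21, Cck by 0.97 and Cplx3 by 0.71.

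The group labels were not part of the rule, so group differences were fitted over all 11778 genes above background, 149 of them members, with limma. The groups accounted for a median of 5.49% of a member's variance, against 27.8% over all genes tested and 26.2% over the 640 other genes that met the SD minimum. For Slc17a7 itself the share was 5.18%. Because the members were chosen to follow Slc17a7, their low share is partly set by the rule and is no separate result. The members' SD within groups had a median of 0.364 log2 units, against 0.0866 and 0.244. Because the members share most of their variation, their counts below are independent neither of one another nor of the low group share of Slc17a7. The mean deviation of all members was -0.60, 0.22 and 0.54 on Sal arrays, 0.16, 0.04 and -0.35 on 1W, -0.29, 0.22 and -0.06 on 1C, 0.05, -0.10 and -0.03 on 30W, and 0.71, -0.08 and -0.43 on 30C. The 30W arrays lay closest together, and Sal and 30C each held arrays from both ends.

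Expression after the extinction test at 30 days was addressed by 30C against 30W. No member passed Benjamini-Hochberg adjustment in limma, where 0% of all genes did, and 0 members had an unadjusted p under 0.05, against 2.11% of all genes higher and 1.82% lower. Klf10, a zinc finger gene induced by growth factors and activity, measured 8.92, 8.31 and 8.28 in 30C and 8.27, 7.99 and 8.25 in 30W, a difference of 0.33 (SE 0.19). Its groups did not overlap, but the 30W and the lower 30C arrays lay close together. Dusp6, the phosphatase that restrains ERK, measured 9.09, 8.08 and 7.93 in 30C and 8.02, 7.69 and 8.05 in 30W, a difference of 0.44 (SE 0.27) in which 30C replicate 1 stood apart and the other arrays overlapped. Without that array the difference was 0.13 for Klf10 and 0.083 for Dusp6. Ntng2 and Tfap2d, which had the smallest p-values among the negative members, differed by -0.18 (SE 0.28) and -0.25 (SE 0.39). The members' median was 0.07, with 119 positive and 30 negative, against 0.00 over all genes, and it was -0.19 without 30C replicate 1 and 0.31 without 30C replicate 3.

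The same test at 1 day, 1C against 1W, gave 81 positive and 68 negative members with a median of 0.00, which was -0.14 without 1W replicate 3, -0.12 without 1C replicate 2 and 0.12 without 1C replicate 1. Again 0 members passed, with 0% of all genes called, and 0 reached an unadjusted p under 0.05, against 1.86% of all genes higher and 2.17% lower. Cbln1, a synapse organiser, differed by -0.30 (SE 0.26) and Tfap2d by -0.43 (SE 0.39). C3 and Pgm2l1, the latter encoding a sugar phosphate synthase, differed by 0.19 (SE 0.17) and 0.21 (SE 0.20). Leaving out 1 array moved these too, C3 to 0.041 without 1C replicate 2 and to 0.315 without 1W replicate 1, Pgm2l1 to 0.11 and Cbln1 to -0.51 without 1W replicate 3, and Cbln1 to -0.15 without 1C replicate 1. The interaction of test and withdrawal length called 0 members and 0% of all genes, and 0 members had an unadjusted p under 0.05, against 1.6% of all genes higher and 1.43% lower. Its median over the members was 0.08, with 114 of 149 positive, against 0.01 and 54.0% positive over all genes. This median was -0.20 without 30C replicate 1, -0.033 without 1C replicate 1, -0.014 without 1W replicate 1 and 0.31 without 30C replicate 3.

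Withdrawal length without a test, 30W against 1W, gave 85 positive and 64 negative members with a median of 0.02, against -0.02 over all genes. This median was -0.018 with each array centred on its median, -0.12 without 1W replicate 3, -0.010 without 30W replicate 1 and 0.12 without 1W replicate 1. No member passed in limma, where 0% of all genes did, and 0 members had an unadjusted p under 0.05 although 4.19% of all genes were higher and 5.9% lower at that level. C3 had the smallest adjusted p among the members, 0.683 in limma, at 0.22 (SE 0.17), which was 0.086 without 1W replicate 3. Tox, an HMG box factor, differed by -0.21 (SE 0.19) and Drd5 by -0.17 (SE 0.16), the latter by -0.068 without 1W replicate 1. With a test, 30C against 1C gave 126 positive and 23 negative members and a median of 0.09, against -0.01 over all genes. Here too 0 members passed, with 0% of all genes called, and 0 had an unadjusted p under 0.05, against 2.41% higher and 3.07% lower. Cbln2 measured 7.93, 6.79 and 6.52 in 30C and 6.43, 6.55 and 6.66 in 1C, a difference of 0.53 (SE 0.34) in which 30C replicate 1 again stood apart and which was 0.11 without it. The members' median was -0.19 without that array, -0.014 without 1C replicate 1 and 0.31 without 30C replicate 3.

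The cocaine groups were each set against Sal, whose arrays the 4 comparisons share. Members passing in limma numbered 0 in all 4, with 0% of all genes called in each. At an unadjusted p under 0.05 members also numbered 0, against 2.78% of all genes higher and 2.09% lower for 1W, 2.1% and 1.33% for 1C, 4.25% and 3.35% for 30W, and 2.94% and 2.12% for 30C. The members' median difference was -0.11 for 1W with 124 negative, -0.11 for 1C with 121 negative, -0.09 for 30W with 115 negative, and -0.02 for 30C with 81 negative. Without Sal replicate 1 these medians were -0.37, -0.36, -0.38 and -0.27, and without Sal replicate 3 they were 0.11, 0.11, 0.13 and 0.20, so leaving out a single saline array turned the sign. The sign turned also without 1W replicate 3 (0.033 for 1W), without 1C replicate 1 (0.0095 for 1C), and for 30C without Sal replicate 2 (0.063), 30C replicate 2 (0.062) or 30C replicate 3 (0.21).

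Among single members, Fezf2 differed between 1W and Sal by -0.46 (SE 0.40) and Slit1 by -0.34 (SE 0.27), and neither passed. Without Sal replicate 1 these differences were -0.88 and -0.61, and without Sal replicate 3 they were -0.22 and -0.13. Tox differed from Sal by -0.25 (SE 0.19) in 1C and by -0.33 (SE 0.19) in 30W, and by -0.070 and -0.16 without Sal replicate 3. Its values were 8.69, 9.35 and 9.55 on Sal arrays and 8.93, 8.84 and 8.82 on 30W arrays, so that the 30W values lay inside the Sal range. Nptx2, the activity-induced pentraxin, stood at 8.10, 8.64 and 9.06 on Sal arrays and 9.67, 8.93 and 8.70 on 30C arrays, a difference of 0.50 (SE 0.26) with overlapping groups, which was 0.21 without 30C replicate 1. Slc17a7 itself differed from Sal by 0.53 (SE 1.03) in 1W, where the error exceeded the difference. Over the 5 groups together the moderated F test of limma called 0 members and 0% of all genes, and 0 members had an unadjusted p under 0.05, against 6.96% of all genes.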

How the data were processed

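Per the submitters' processing notes the authors made the deposited log2 intensity values with RMA, which corrects background, quantile-normalizes arrays and summarises probes; the sources used here give neither its version nor the software. The table held 28826 probe sets, of which 15209 had a single symbol in the platform annotation, 306 had several and 13311 were unnamed here. RefSeq (GRCr8) symbols matched for 150 of the 150 members. The module was chosen as described above. Its members, the gene lists and the roles were chosen with earlier results of these data known, and several of the lists' genes are cortical markers already seen to vary.

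Group differences were fitted by lmFit and eBayes of limma 3.58.1 (R 4.3.3, 5 groups in 1 fit, 10 residual and 3.44 prior degrees of freedom), two-sided, adjusted by Benjamini-Hochberg over the 11778 genes that exceeded an array's 30th percentile on 3 or more arrays, with a threshold of 0.05. The selection and the fit were tested on simulated data. Genes were named by rules on r, slope, list membership and, per comparison, the 2 smallest p-values in each direction. Further members named within a role and list genes named that are no members were chosen after their values were seen. So were the end arrays and the differences between them. With 3 arrays per group, the number of arrays limits the precision, and no batch is given in the labels.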

Additional observations from a re-analysis of the deposited data

How the results depend on the processing

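Of the 150 members, 89 were chosen again with an SD minimum of 0.1 and 82 with one of 0.3, where the number of genes ranked changed to 6744 and 219. The other alternatives chose between 121 (without the 2 arrays farthest from the median Slc17a7 level) and 149 again, and leaving out each array in turn gave 122 to 147. No member passed the adjusted threshold in limma in any comparison as reported. Counts over all genes moved from 0 to 1, 3 and 2 with array weights (30C against 30W, 30W against 1W and 30C against 1C), to 3, 1 and 1 with Slc17a7 as a covariate (30C against 30W, 30C against 1C and any group), and to 1 at an adjusted p under 0.10 (30C against 30W). Leaving out each array in turn gave 0 to 1 in 30C against 30W, 1C against 1W, 30W against 1W and 1C against Sal, and 0 to 2 in 30C against 1C and over any group. With array weights the Slc17a7 difference reversed to -0.11 in 1C against 1W, -0.065 in 1C against Sal and -0.46 in 30C against Sal.

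Leaving out each array in turn, Slc17a7 ranged from -0.39 to 0.49 in 1C against 1W, -0.93 to 1.5 in 1C against Sal, -1.0 to 1.43 in 1W against Sal, -0.76 to 0.70 in 30C against 1C, -1.0 to 0.46 in 30C against 30W, -1.0 to 1.43 in 30C against Sal, -0.15 to 0.57 in 30W against 1W and -0.69 to 1.74 in 30W against Sal. Against Sal, Nptx2 ranged from -0.10 to 0.38 in 1W and -0.010 to 0.47 in 30W, Cntn4 from -0.14 to 0.28 and Klf10 from -0.12 to 0.29 in 1C, Slc15a2 from -0.14 to 0.37 in 30W, and Thrsp from -0.55 to 0.0097 and Gask1b from -0.48 to 0.0094 in 30C. In 30C against 30W Ntng2 ranged from -0.41 to 0.093 and Tfap2d from -0.52 to 0.060, and in 30C against 1C Rasgef1c from -0.36 to 0.13. The cause of these shifts was not tested beyond which arrays were left out. Deviations correlated above 0.1 in 10 of 30 pairs of arrays with the same replicate number (range -0.63 to 0.51). Pairs with different numbers were not set beside them, so whether the replicate numbers pair the samples was not settled. A fit with replicate block gave 0 calls in every comparison. Fits to only the arrays compared have no value for the interaction and the F test.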
